A study of Mus musculus with 10 samples.

Results

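Nrtn and C1qtnf4 encode secreted factors, and both were listed among the genes that differed between MIN6N8 cells given IL-22 and cells given PBS. They are 2 of the 230 genes in the deposited table. They were chosen by name, with the difference between the treatments already known, so their levels in the PBS and IL-22 groups are given here as a description with no test. MIN6N8 is a mouse insulinoma line that secretes insulin. One group of 5 samples received PBS and the other group of 5 received IL-22 at 100 ng mL−1. In both groups the medium was changed to low glucose (5.5 mM) and treatment lasted 4 h. Nothing in the labels says whether replicates were grown separately, so p-values here measure the spread between these samples, which may be technical.

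Neurturin, the product of Nrtn, is a ligand of the GDNF family, a branch of the TGF-beta superfamily. It binds the co-receptor GFRA2 and thereby activates the receptor tyrosine kinase RET, and it is best known for the upkeep of parasympathetic and enteric neurons. Mice without GFRA2 have few parasympathetic fibres in their islets. CTRP4, the product of C1qtnf4, belongs to the C1q and TNF related proteins, a family that includes adiponectin. It carries a pair of C1q domains and no collagen stretch, and it is known for its expression in the brain and for lowering food intake when given to the hypothalamus. IL-22 acts on cells that carry IL-22RA1, mainly through STAT3.

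Nrtn lies on chromosome 17 (GRCm38), minus strand, at positions 56751325 to 56757530, and has 3 exons, of which 2 hold coding sequence. C1qtnf4 lies on chromosome 2, plus strand, at positions 90885860 to 90890525, with 2 exons and its coding sequence in the last of them. Neither overlaps another annotated gene. Each has 7 annotated genes that start within 100 kb of its own start, among them Dus3l beside Nrtn and Ndufs3 beside C1qtnf4, and 0 of these are in the table. The annotated transcripts are short, 1023 nt for Nrtn and 1290 nt for C1qtnf4, against a median of 2833 nt for the longest transcripts of the listed genes. They are also rich in G and C. At 72.8% GC the Nrtn transcript ranked 1 of 230 and at 70.7% the C1qtnf4 transcript ranked 3, where the median was 56.8%. The last 300 coding bases of each gene are shown because this composition recurs in the results, with each CpG dinucleotide in capitals. The stretch of Nrtn, in exon 3, encodes the C-terminal part of the precursor, where the mature ligand lies, and that of C1qtnf4, in exon 2, encodes the C-terminal part of CTRP4. Both were read from GENCODE transcripts on GRCm38. They lie at chr17:56751415-56751714 (minus strand) and chr2:90890063-90890362 (plus strand).
Nrtn coding end: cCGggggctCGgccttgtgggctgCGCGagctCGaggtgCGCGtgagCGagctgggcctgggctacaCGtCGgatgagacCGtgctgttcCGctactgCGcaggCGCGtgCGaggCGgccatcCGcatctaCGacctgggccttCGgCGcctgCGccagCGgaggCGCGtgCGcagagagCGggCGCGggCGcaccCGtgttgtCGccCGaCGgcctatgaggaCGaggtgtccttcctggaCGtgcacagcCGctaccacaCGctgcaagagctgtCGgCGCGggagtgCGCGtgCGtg
C1qtnf4 coding end: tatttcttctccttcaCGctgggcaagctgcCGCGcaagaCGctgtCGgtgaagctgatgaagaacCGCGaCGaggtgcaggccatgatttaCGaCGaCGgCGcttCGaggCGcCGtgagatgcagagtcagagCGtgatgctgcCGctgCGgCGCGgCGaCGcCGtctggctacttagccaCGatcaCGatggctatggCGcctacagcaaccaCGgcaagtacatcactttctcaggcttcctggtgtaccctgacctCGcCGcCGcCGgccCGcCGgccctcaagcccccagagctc
GC made up 72.0% of the bases in the Nrtn stretch, which held 44 CpG, and 63.3% in the C1qtnf4 stretch, which held 33. Over the whole coding sequence the shares were 72.3% for Nrtn (585 nt) and 70.7% for C1qtnf4 (978 nt).

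Because IL-22 signals through STAT3, the sequence before the start of Nrtn was searched for short motifs. RefSeq's promoter table (GRCm38) matched 1 of the 2 genes, Nrtn. The 250 bases upstream of its RefSeq start, at chr17:56757549-56757798 on the minus strand, are given with CpG in capitals.
Nrtn upstream: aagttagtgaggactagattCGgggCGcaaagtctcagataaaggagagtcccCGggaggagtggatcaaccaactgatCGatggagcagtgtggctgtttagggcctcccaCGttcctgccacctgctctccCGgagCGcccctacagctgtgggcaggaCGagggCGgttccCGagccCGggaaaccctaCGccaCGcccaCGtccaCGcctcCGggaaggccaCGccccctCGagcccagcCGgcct
GC made up 64.8% of this window, against a median of 52.4% over 32851 windows of the same length and position in the table, and 82.3% of the windows had less. The STAT motif TTCNNNGAA, which reads the same on both strands, had 0 matches here and at least 1 in 7.02% of all windows. TGANTCA, the motif of AP-1, also had 0 matches, against 6.75% of windows with one. GGGCGG, the GC box, had 1 match, both strands searched, and 32.7% of windows held one. A match or its absence describes these letters in this window alone.

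The libraries held 23685882 to 35785875 counted reads in the PBS group (median 29468620) and 26759221 to 30568900 in the IL-22 group (median 27611817). Expression is given in CPM, the read count of a gene scaled to the total of its library. Both genes were expressed at a low level, close to the bottom of the table. By mean CPM over the 10 libraries, Nrtn ranked 225 and C1qtnf4 ranked 220 of 230 from the top, and per kb of transcript they ranked 217 and 213. Of the beta-cell markers examined, 6 of 12 are in the table, namely Pdx1, Mafa, Nkx6-1, Nkx2-2, Iapp and Slc2a2. For markers of other cells of the pancreas, nerve or blood, 0 of 27 are in it, and unlisted genes were not analysed here.

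Nrtn was read 32, 14, 35, 32 and 76 times in PBS replicates 1 to 5, which gave 0.894, 0.591, 1.17, 1.09 and 2.62 CPM. In IL-22 replicates 1 to 5 it was read 71, 64, 79, 98 and 58 times, giving 2.32, 2.39, 2.95, 3.49 and 2.10 CPM. The groups overlapped, since PBS replicate 5 lay above 3 of the IL-22 libraries, while the other 4 PBS libraries lay below all 5 of them. The PBS mean was 1.27 ± 0.788 CPM and the IL-22 mean 2.65 ± 0.565 CPM (SD, n = 5 each), a ratio of 2.08. The log2 fold change between the treatments in edgeR, IL-22 over PBS, was 1.05 (SE 0.311), which ranked 7 of 230. Without PBS replicate 5 the PBS mean was 0.935 ± 0.256 CPM (SD, n = 4) and the log2 fold change was 1.48 (SE 0.241).

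C1qtnf4 was read 42, 29, 67, 55 and 78 times in PBS replicates 1 to 5, corresponding to 1.17, 1.22, 2.23, 1.87 and 2.69 CPM. The counts in IL-22 replicates 1 to 5 were 127, 86, 102, 94 and 106, corresponding to 4.15, 3.21, 3.81, 3.35 and 3.84 CPM. All 5 IL-22 libraries lay above all 5 PBS libraries, as they did in 46.5% of the listed genes. That share comes from genes listed for this same difference. The means were 1.84 ± 0.654 CPM for PBS and 3.67 ± 0.386 CPM for IL-22 (SD, n = 5 each), a ratio of 1.998. Its log2 fold change was 1.00 (SE 0.22) and ranked 11 of 230. PBS replicate 5 was again the highest of its group, and without it the log2 fold change was 1.18 (SE 0.199).

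**Figure D1:**
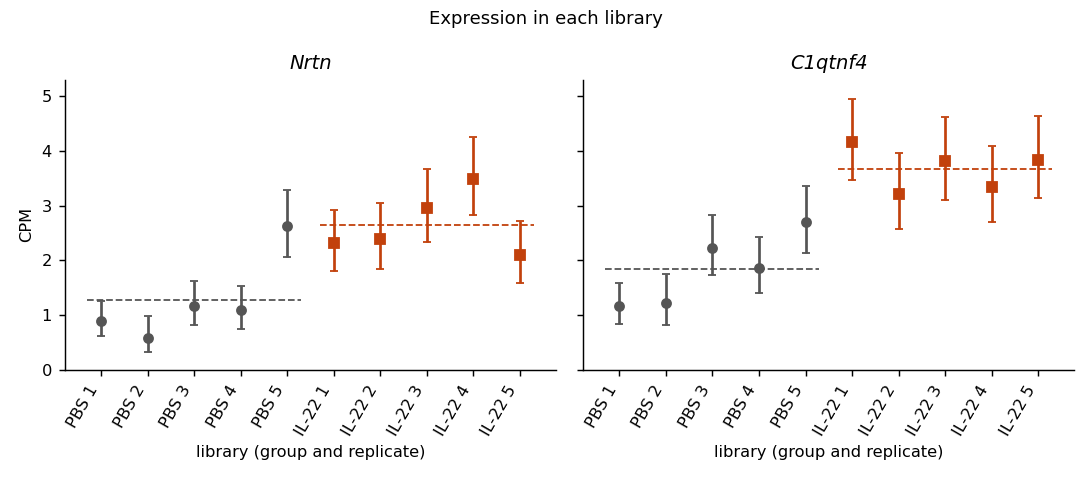
CPM of Nrtn (left) and C1qtnf4 (right) in each library, PBS as grey circles and IL-22 as orange squares, with exact Poisson 95% intervals as bars and group means as dashed lines. PBS replicate 5 reached 2.62 CPM for Nrtn, inside the IL-22 range, and 2.69 CPM for C1qtnf4, below it.

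Per kb of transcript, in the PBS libraries, Nrtn had 1.24 ± 0.77 CPM per kb and C1qtnf4 had 1.43 ± 0.507 CPM per kb (SD, n = 5 each). With IL-22 the levels were 2.59 ± 0.553 and 2.85 ± 0.299 CPM per kb (SD, n = 5 each). The 2 genes thus stood at levels closer to each other than the spread between replicates. The ratio of C1qtnf4 to Nrtn per kb lay between 0.814 and 1.64 in PBS libraries (median 1.36) and between 0.761 and 1.45 in IL-22 libraries (median 1.07). The 2 ranges overlapped over most of their length. The lowest ratios of both groups were in PBS replicate 5 and IL-22 replicate 4, the libraries with the most Nrtn in their group.

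At these counts, sampling of reads sets a floor to the precision. For Nrtn the exact Poisson 95% interval ran from 0.323 to 0.992 CPM in PBS replicate 2, from 2.07 to 3.29 CPM in PBS replicate 5, and from 1.60 to 2.71 CPM in IL-22 replicate 5. These intervals cover counting error only. Counting alone would give Nrtn an SD of 0.208 CPM among the PBS libraries, and the SD seen was 3.79 times that. Among the IL-22 libraries it was 1.83 times the counting value. C1qtnf4 varied by 2.60 times the counting SD in the PBS group and by 1.07 times in the IL-22 group, so with IL-22 its replicates differed by about as much as the read counts alone allow. In both genes the PBS libraries spread more widely than the IL-22 libraries, with coefficients of variation of 61.9% against 21.3% for Nrtn and 35.6% against 10.5% for C1qtnf4. For Nrtn much of this spread rests on PBS replicate 5. Without it the PBS values were 0.935 ± 0.256 CPM (SD, n = 4), and the SD was below the 0.565 CPM of the IL-22 group. For C1qtnf4 they were then 1.625 ± 0.5145 CPM (SD, n = 4), and the SD stayed above the 0.386 CPM of the IL-22 group.

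The within-group SD of log2(CPM + 0.5) was 0.436 for Nrtn, which ranked 1 of 230. For C1qtnf4 it was 0.304, which ranked 10, and the median of the listed genes was 0.0858. Most listed genes had higher counts. Of other genes at a low level, Scand1 (mean 2.98 CPM) had 0.429 and Hmx2 (1.38 CPM) 0.427, close to Nrtn, while Asb4 (2.63 CPM) had 0.167. Nrtn was also the listed gene in which PBS replicate 5 stood farthest above the other PBS libraries, by 1.14 on the log2 scale. C1qtnf4 ranked 10 in that measure, at 0.62. The IL-22 libraries stood above the same 4 PBS libraries by 1.14 for Nrtn and by 1.00 for C1qtnf4. PBS replicate 5 therefore differed from the other PBS libraries in Nrtn by as much as the IL-22 libraries did, and in C1qtnf4 by less.

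**Figure D2:**
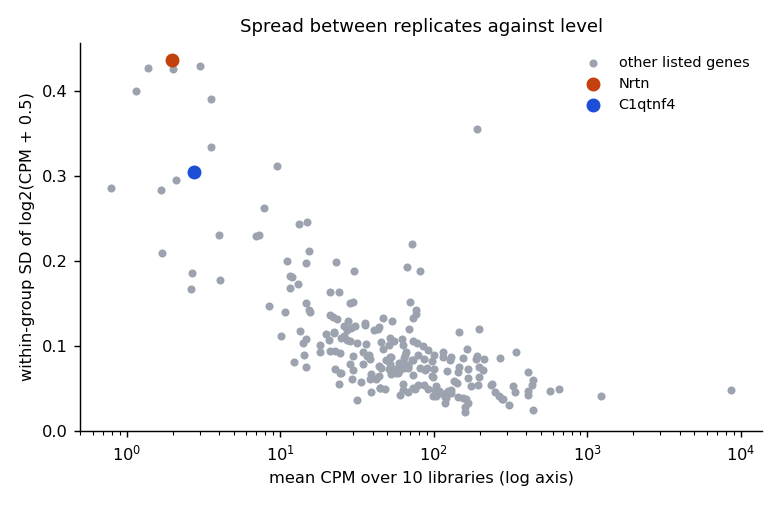
Within-group SD of log2(CPM + 0.5) over 10 libraries (vertical axis) against mean CPM on a log axis, 1 point for each of the 230 listed genes. Nrtn (orange), at 0.436, is the highest point, C1qtnf4 (blue) is at 0.304, and most genes of higher expression lie lower.

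Among the listed genes, the libraries also differed in how strongly they represented those rich in GC. A GC index was computed for each library as the slope of its log2(CPM + 0.5), less the mean of the gene over libraries, on the GC content of the transcript, over the 228 genes other than Nrtn and C1qtnf4. It is given in log2 units per 10 percentage points of GC. The index was -0.139, -0.12, -0.0295, -0.0723 and 0.0602 in PBS replicates 1 to 5, and 0.0347, 0.0684, 0.0586, 0.0816 and 0.0568 in IL-22 replicates 1 to 5. PBS replicate 5 was the one PBS library within the IL-22 range. Within the PBS group, the libraries had the same order in C1qtnf4 as in the index, and Nrtn followed that order apart from replicates 1 and 2. In the IL-22 group, replicate 4 had both the highest index and the most Nrtn, while C1qtnf4 was highest in replicate 1, which had the lowest index of that group.

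**Figure D3:**
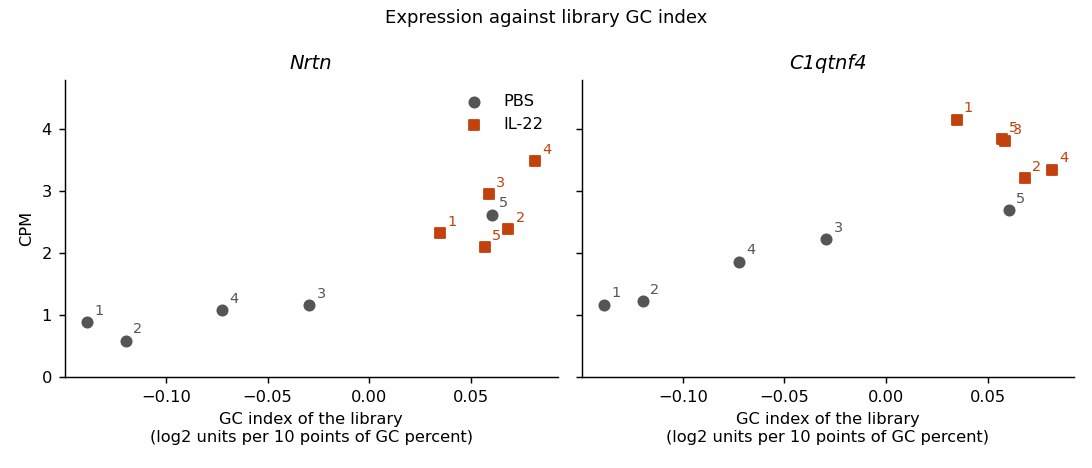
CPM of Nrtn (left) and C1qtnf4 (right) against the GC index of the library, with replicate numbers beside the points, PBS as grey circles and IL-22 as orange squares. PBS replicate 5, at an index of 0.0602, lies among the IL-22 libraries for Nrtn and below them for C1qtnf4.

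Deviations of each library from its group mean do not use the difference between treatments and were tested for a relation. Libraries were permuted within groups in all possible orders (exact permutation test, two-sided), and p-values were adjusted over the 3 relations computed. Nrtn varied with the GC index within groups, with Pearson r = 0.887 (exact permutation p = 0.00639, adjusted 0.0192) and Spearman rho = 0.806 (exact permutation p = 0.0128, adjusted 0.0383, n = 10 libraries). Without the 2 libraries farthest in the index, PBS replicates 1 and 5, r was 0.781 (exact permutation p = 0.0458, adjusted 0.138). The adjusted p was also above 0.05 without PBS replicate 3 (0.0635), replicate 4 (0.0552) or replicate 5 (r = 0.641, adjusted exact permutation p = 0.232), so the call rests on these libraries. Taking same-numbered libraries as pairs, r was 0.909 over 5 differences and did not pass (adjusted exact permutation p = 0.112). C1qtnf4 had r = 0.834 with the index (exact permutation p = 0.0405, adjusted 0.0607) and rho = 0.588 (exact permutation p = 0.203), which did not pass, and without PBS replicates 1 and 5 its r was 0.551 (exact permutation p = 0.464). Nrtn and C1qtnf4 had r = 0.702 with each other (exact permutation p = 0.0664, adjusted also 0.0664) and rho = 0.515 (exact permutation p = 0.193), which did not pass either. Without the 2 libraries farthest in C1qtnf4, PBS replicates 1 and 2, that r was 0.429 (exact permutation p = 0.476). For both relations of C1qtnf4, the adjusted p fell below 0.05 when IL-22 replicate 1, 4 or 5 was left out, and for the relation with the index also without IL-22 replicate 2. The lowest adjusted exact permutation p was 0.0267 between the genes and 0.026 with the index.

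With the GC index as a covariate in the edgeR fit, the log2 fold change of Nrtn went from 1.05 to 0.086 (SE 0.276) and that of C1qtnf4 from 1.00 to 0.44 (SE 0.245). The median over all listed genes went from 0.207 to 0.0925. The index was taken from genes that were themselves listed for the difference between the treatments, and its mean was 0.06 ± 0.0173 (SD, n = 5) with IL-22 and -0.06 ± 0.0796 (SD, n = 5) with PBS. Treatment and index cannot be told apart beyond what PBS replicate 5 and the spread within groups allow.

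**Figure D4:**
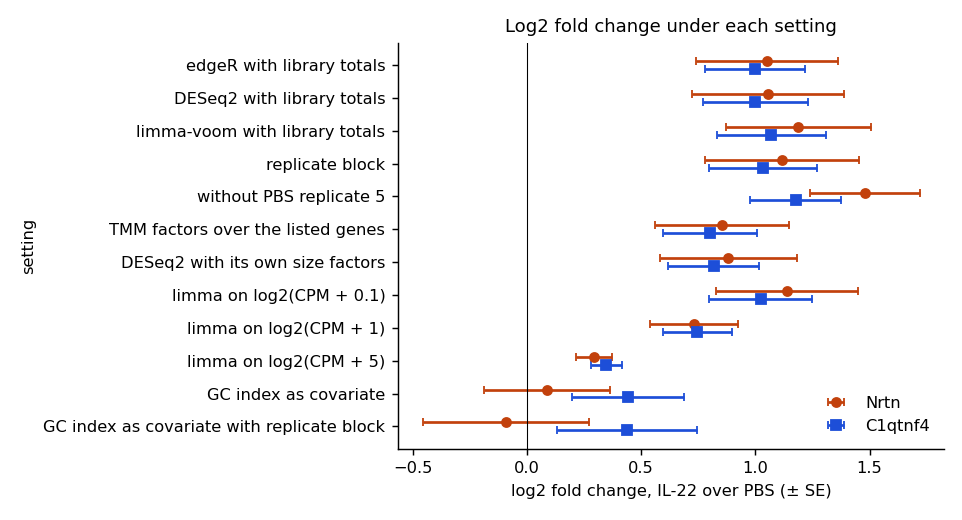
Log2 fold change (IL-22 over PBS, horizontal axis) of Nrtn (orange circles) and C1qtnf4 (blue squares) under 12 settings of test, scaling, pseudocount, block and covariate, with bars of 1 SE. Nrtn runs from 1.48 without PBS replicate 5 to 0.73 with a pseudocount of 1 CPM and 0.292 with 5 CPM, and is at 0.086 with the GC index and -0.093 with the index and the replicate block.

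Across the 228 other genes, the log2 fold change and the GC content of the transcript had a Pearson r of 0.288 and a Spearman rho of 0.336, given as a description since genes are not independent replicates. In 4 bins of 57 genes ordered by GC content, the log2 fold change was positive for 57, 56, 56 and 26 genes from high to low GC, with medians of 0.23, 0.20, 0.22 and -0.10. The upper 3 bins were thus alike, and the bin with the lowest GC, where 31 genes were negative, differed from them. The median difference of PBS replicate 5 from the other PBS libraries over the same bins was 0.206, 0.161, 0.0926 and -0.0521 on the log2 scale.

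**Figure D5:**
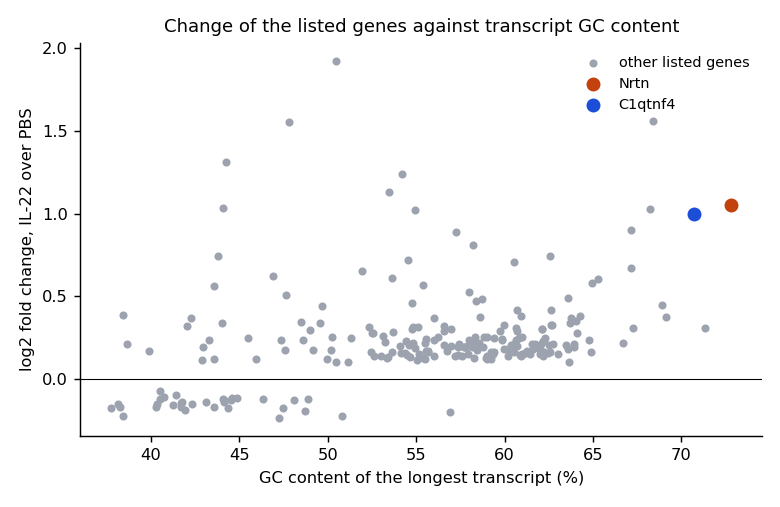
Log2 fold change (IL-22 over PBS, vertical axis) against the GC content of the longest transcript, 1 point for each of the 230 listed genes. Nrtn (orange) is at 72.8% GC and C1qtnf4 (blue) at 70.7%, and genes with negative log2 fold changes lie mostly at low GC.

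The listed genes whose deviations within groups were most like those of Nrtn over the 10 libraries were Msx1 (Pearson r = 0.931), a homeobox gene, then Pgls (0.895), Zfp865 (0.889), Aes (0.887) and Scaf1 (0.885). Those least like it were Slc5a1, which encodes the glucose cotransporter SGLT1 (-0.81), and Chl1, which encodes a neural adhesion molecule (-0.797). For C1qtnf4 they were Dlk1 (0.945), which encodes a membrane protein of the Notch ligand type, Romo1 (0.926), Akt1s1 (0.925), Pcsk1n (0.915), which encodes the granule peptide precursor proSAAS, and 2310039H08Rik (0.898). Slc5a1 (-0.856) and Cxx1a (-0.831) were least like it. Of the 10 most similar genes, r with the GC index lay between 0.721, for Romo1, and 0.966, for Pcsk1n, and it was -0.823 for Slc5a1. The transcripts of these 10 held from 53.6% (Dlk1) to 63.0% GC (Scaf1), where the median of the listed genes was 56.8%. Among the least similar, Slc5a1 and Chl1 held 47.8% and 39.9%, while Cxx1a held 59.75% and had r = -0.67 with the index. The 2 secreted factors were not each other's closest match, as C1qtnf4 ranked 57 of 229 in likeness to Nrtn and Nrtn ranked 62 in likeness to C1qtnf4. These values are a description, with all genes read from the same libraries.

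The partners of these factors are nearly all outside the table. Of 13 GDNF family ligands, co-receptors and binding partners, RET among them, 1 is listed, Nrtn itself. Of 42 genes for RET adaptors and the pathway below them, 0 are listed. Of 37 C1q and TNF related proteins and their receptors, 1 is listed, C1qtnf4 itself. Whether cells of this line carried RET, GFRA2 or a receptor for CTRP4 was not analysed here. A further list of 134 secreted peptides and factors had 6 genes in the table.

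Among those 6 secreted genes, 5 rose and 0 fell at an adjusted p below 0.01 (edgeR, over the 230 listed genes), where 81.3% of all listed genes were called higher and 13.5% lower. That balance depends on the scaling, since TMM factors gave 18 higher and 33 lower and DESeq2's own size factors gave 30 and 33. Every listed gene was selected for this same difference, so these calls and the p-values below describe the genes and are no independent test. The median log2 fold change of the 6 secreted genes was 0.44, against 0.207 over all listed genes. Fgb, the beta chain of fibrinogen, an acute-phase protein of the liver, was the one closest to Nrtn in level and change. Its PBS mean was 1.10 ± 0.352 CPM and its IL-22 mean 2.24 ± 0.312 CPM (SD, n = 5 each), and the log2 fold change was 1.03 (SE 0.252, edgeR adjusted p = 0.00263). Its transcript held 44.1% GC, and PBS replicate 5 was its lowest PBS library, at 0.518 CPM, where for Nrtn that library was the highest. With the GC index as covariate its log2 fold change was 1.41 (edgeR adjusted p = 0.00887).

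Pcsk1n, at 57.3% GC, rose, with means of 134 ± 49.1 and 248 ± 15.9 CPM (SD, n = 5 each), a log2 fold change of 0.89 (edgeR adjusted p = 0.00059), and with the index 0.25 (adjusted p = 0.00887). Cartpt, which encodes the neuropeptide precursor CART, rose, with means of 8.52 ± 0.778 and 13.0 ± 1.47 CPM (SD, n = 5 each) and log2 fold changes of 0.61 (edgeR adjusted p = 0.00027) and, with the index, 0.735 (adjusted p = 0.00065). In Cartpt, PBS replicate 5, at 7.91 CPM, lay within the range of the other PBS libraries. Vgf, another neuropeptide precursor, and Igfbp4, which encodes an IGF binding protein, rose by 0.28 and 0.12 on the log2 scale, and with the index had 0.12 and 0.051 (edgeR adjusted p = 0.0987 and 0.346). The rise of Igfbp4 was smaller than the median of 0.207 over all listed genes. Iapp, which encodes amylin, had a log2 fold change of -0.07 (edgeR adjusted p = 0.023) and did not pass. The 6 listed beta-cell markers, Iapp among them, gave 4 higher and 1 lower, where the shares over all listed genes were 81.3% and 13.5%, with Mafa, an activator of the insulin gene, at a log2 fold change of 0.58 (edgeR adjusted p = 0.00023) and Slc2a2, which encodes the glucose transporter GLUT2, at -0.17 (edgeR adjusted p = 0.00326). Of these markers, 1 was called higher with the index, Mafa (0.21, edgeR adjusted p = 0.00887), and 0 lower. Slc2a2 then had -0.14 (edgeR adjusted p = 0.0917). With the index, 3 of the 6 secreted genes were called higher and 0 lower, against 25 (10.9%) and 0 of all 230 listed genes in edgeR, of which 75 were higher and 11 lower at an unadjusted p under 0.05. Among the 5 called genes the log2 fold change of Fgb and Cartpt was thus larger with the index as covariate, whereas that of Pcsk1n, Vgf and Igfbp4, like that of Nrtn and C1qtnf4, was smaller.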

How the data were processed

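RNA from MIN6N8 cells (5 PBS and 5 IL-22 samples) was made into stranded mRNA libraries. For 230 genes, the authors deposited raw counts in each library. The deposited CPM are these counts scaled to the library total, and 99.9% of them equal that quotient within 0.0015. The authors' table also holds their own fold change, mean expression, p-value and FDR. Each gene has an FDR below 0.05, and these comparison values were otherwise not used. The labels name mm10. The aligner and counting program are not given in the sources used here. The IL-22 dose given here is that of the labels, which differs from the dose in the paper's methods.

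Dividing counts by CPM gave the library totals. A filter of 1 CPM or more in at least 5 libraries kept all 230 genes. Nrtn reached 1 CPM in 3 PBS and 5 IL-22 libraries and so passed through the IL-22 group, whereas C1qtnf4 reached it in all 10. Log2 fold changes and calls came from edgeR's quasi-likelihood test (edgeR 4.0.16, R 4.3.3) with library totals, two-sided, adjusted by Benjamini-Hochberg over 230 genes, threshold 0.01, and the SE from the F statistic. Since all genes were selected by this comparison, calls serve as background only. Permutation tests used scipy 1.17.1 under Python 3.11.15. The procedures were tested on simulated data. Alternatives used limma 3.58.1 (with and without voom), DESeq2 1.42.0, TMM, other pseudocounts and filters, a replicate block, the GC index and each library left out. GC content came from the longest GENCODE transcript (GRCm38), with 220 genes matched by symbol and 10 by an older one. The 2 genes, the lists and the alternatives were chosen with earlier results of these data known. Named genes are the 2 genes, for each the 5 most and 2 least similar by deviations within groups, listed genes of the 4 gene lists and the markers, and listed genes within 100 kb. Other genes of high GC content were named after their values were seen.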

Additional observations from a re-analysis of the deposited data

Results flagged for a closer look

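The CPM of Nrtn and of C1qtnf4, the library total and the GC index were each examined within both groups, 8 groups of 5 libraries in all. In 1 of them a library lay far from the rest, where chance alone gives about 5% of groups. This was Nrtn in PBS replicate 5, at 2.62 CPM, with the other PBS libraries at 0.591 to 1.17 CPM. Its gap to the next library was 0.717 of the group's range, against a limit of 0.71. This check used CPM, and the log2 values of the genes were not examined in this way. The same library was also the highest of the PBS group in C1qtnf4 and in the GC index, with gaps of 0.302 and 0.451 of the range, which are under the limit.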

How the results depend on the processing

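Leaving out each library in turn gave log2 fold changes from 0.896 (without PBS replicate 2) to 1.48 (without PBS replicate 5) for Nrtn and from 0.857 (without PBS replicate 1) to 1.18 (without PBS replicate 5) for C1qtnf4. The listed genes called higher then numbered 127 (without PBS replicate 1) to 196 (without PBS replicate 5), against 187, and those called lower 15 (without IL-22 replicate 4) to 32 (without PBS replicate 5), against 31. The lower calls were 18 without PBS replicate 1 or 4 and 19 without PBS replicate 2 or 3 or IL-22 replicate 2 or 5. Pearson r of Nrtn with the GC index ranged from 0.641 (without PBS replicate 5) to 0.932, that of C1qtnf4 from 0.7 to 0.904, and that between the genes from 0.394 to 0.801.

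A pseudocount of 5 CPM, which exceeds the level of both genes, gave 0.292 for Nrtn and 0.347 for C1qtnf4. Factors computed over the listed genes moved the median log2 fold change from 0.207 to 0.0025 (TMM) or 0.013 (DESeq2), and left 18 and 30 genes higher, with 33 lower in both. Nrtn then had 0.853 and 0.882, and C1qtnf4 0.802 and 0.817. With the GC index, Nrtn had 0.0858 and C1qtnf4 0.4425, and 25 genes were higher and 0 lower (edgeR, 11 lower at an unadjusted p under 0.05). With the index and the replicate block together, Nrtn turned to -0.0926 (SE 0.364), C1qtnf4 had 0.4363, and 24 genes were higher and 0 lower (13 lower at an unadjusted p under 0.05). The cause was not tested. At a minimum of 1 CPM in every library, Nrtn was left out and has no value.

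Same-numbered libraries of the 2 groups had correlations of their deviations of 0.263, 0.299, 0.296, -0.034 and -0.21. Their mean was 0.123, against -0.0319 for libraries of different number, and 5 of 10 libraries correlated best with their own number. The labels name no shared source for same-numbered libraries, and these values do not settle whether they are pairs. The fits in the Results left the libraries unpaired. The replicate block gave log2 fold changes of 1.12 for Nrtn and 1.03 for C1qtnf4, and 193 genes higher and 32 lower. With the block, r of Nrtn with the GC index was 0.909 over 5 differences (adjusted exact permutation p = 0.112), no longer under 0.05, and without the 2 libraries farthest in the index it was 0.781 (adjusted exact permutation p = 0.138).

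The read counts, from 14 to 127 for these genes, limit how small a difference between libraries can be seen.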

Other observations

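Among the 10 listed genes with the highest transcript GC content, Nrtn and C1qtnf4 included, PBS replicate 5 was the highest PBS library in 8, the exceptions being C2cd4b and Cebpb. All IL-22 libraries lay above all PBS libraries in 6 of the 10, and in 46.5% of all listed genes. The log2 fold change was smaller with the GC index as covariate in each of the 10, and the median over all listed genes also fell, from 0.207 to 0.0925. The index is a slope on GC content and was higher on average with IL-22. A fall in genes of high GC content is therefore partly built in. H1fx, which encodes a linker histone variant and ranked 2 by GC content (71.3%), went from 0.31 (SE 0.0969) to -0.024. Scand1, at 68.4% GC and a level close to that of C1qtnf4, went from 1.56 (SE 0.277) to 0.74, and Gm1673, at 68.2%, from 1.03 (SE 0.239) to 0.42. Cebpb, which encodes the transcription factor C/EBP beta and has 67.2% GC, had 0.901 without the index and 0.897 with it, and PBS replicate 5, at 1.21 CPM, was the middle one of its PBS libraries. These genes were chosen after their values were seen.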
